A study of Mus musculus with 2 samples.

Results

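Il17a, Il17f, Il22, Il23r, Il1r1, Tmem176a and Tmem176b were followed as the genes of type 3 lymphocytes in single kidney cells of lupus-prone MRL-lpr mice. They are 7 of the 31053 genes counted, were matched by symbol, and were read in every cell that passed 2 limits, a minimum of 200 genes and a maximum of 20% mitochondrial UMIs (unique molecular identifiers, counted transcripts). The scRNA-seq experiment has 1 library of pooled kidneys of old MRL-lpr mice and 1 of young MRL-lpr mice, untreated in both cases. Mice of both ages carry the Fas lpr mutation on the MRL/MpJ background (MRL/MpJ-Fas lpr/J), so no library shows these genes with an intact Fas. Leukocytes were enriched on a density gradient, then with a magnetic kit for innate lymphoid cells (ILCs), and live cells were sorted, so that a share of cells is not a frequency in the kidney.

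The young library kept 11429 of 15076 barcodes with a median of 7881 UMIs, and the old library kept 10232 of 12622 with a median of 6933. With 1 library per age no replicate checks a difference between the ages, so no p value is given, and every interval, as every limit given for a count of 0, covers counting error only. A gene is called higher or lower where its level differs at least 2-fold. UMIs of Y-linked genes without Xist were found in 50.8% of cells of the young library and in 40.6% of cells of the old one, although the study's methods describe female mice, and both libraries held both kinds of cells. The libraries shared 26 barcodes, and none of them carried Il17a.

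Type 3 lymphocytes are T cells and innate lymphoid cells that make IL-17A, IL-17F and IL-22. IL-23 acts on them through IL-23R and IL-1 through IL-1R1, and in γδ T cells the 2 signals can elicit IL-17A without engagement of the T cell receptor. IL-17A and IL-17F act on epithelial and stromal cells and draw in neutrophils, whereas IL-22 acts on epithelial cells. Tmem176a and Tmem176b encode related membrane proteins that are abundant in type 3 lymphocytes and are also made by other cells.

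By GENCODE M21 on GRCm38 (mm10), Il17a lies on the plus strand of chromosome 1 at 20730905 to 20734496, and Il17f on the minus strand at 20777146 to 20790617, with 42649 bases between them. Il1r1 lies on the same chromosome at 40225080 to 40317257. Il23r lies on chromosome 6 at 67422932 to 67491855 and Il22 on chromosome 10 at 118204942 to 118210047. Tmem176b (chromosome 6, 48833818 to 48841496, minus strand) and Tmem176a (48840919 to 48847071, plus strand) run in opposite directions, and their spans share 578 bases.

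AGGTCA is the core half-site that many nuclear receptors bind, and the bases just before the start of each member were searched for it on both strands (as AGGTCA or TGACCT, which is the same site read on the other strand). The windows come from RefSeq on GRCm38.p6, reach up to 250 bases before each start and leave out annotated exons. Il17a, Il17f and Il23r held a match, and their windows are shown because the cells that carry these genes are described next. Capitals mark the matches, and each window is written 5′ to 3′ in the direction of its gene, for Il17a chr1:20730655-20730904 on the plus strand, for Il17f chr1:20784271-20784494 on the minus strand, and for Il23r chr6:67491856-67492105 on the minus strand.
Il17a: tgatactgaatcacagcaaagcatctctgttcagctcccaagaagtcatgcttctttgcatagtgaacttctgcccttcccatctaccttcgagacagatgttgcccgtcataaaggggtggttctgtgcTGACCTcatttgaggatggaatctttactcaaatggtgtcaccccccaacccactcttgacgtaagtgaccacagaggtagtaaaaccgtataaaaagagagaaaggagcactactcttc
Il17f: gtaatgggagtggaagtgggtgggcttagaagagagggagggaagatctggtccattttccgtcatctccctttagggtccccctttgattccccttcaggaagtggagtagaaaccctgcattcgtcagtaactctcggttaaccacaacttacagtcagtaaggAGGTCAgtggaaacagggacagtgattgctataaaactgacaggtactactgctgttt
Il23r: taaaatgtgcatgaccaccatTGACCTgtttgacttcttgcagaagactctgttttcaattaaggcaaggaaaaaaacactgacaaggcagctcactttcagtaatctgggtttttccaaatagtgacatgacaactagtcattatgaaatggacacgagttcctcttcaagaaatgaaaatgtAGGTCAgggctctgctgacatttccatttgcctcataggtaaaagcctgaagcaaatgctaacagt
The match lies 120 bases before the start of Il17a and 58 bases before that of Il17f, and the 2 matches of Il23r lie 229 and 66 bases before it. No window of Il22, Il1r1, Tmem176a or Tmem176b held these letters, and 14.0% of the 32851 promoter windows of the genome did (4607 windows).

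Il17a, the defining cytokine gene of the group, was carried by very few cells, of which 31 of 32 in the young library and 9 of 12 in the old lay in T-like or ILC2-like clusters. The young library held 310 Il17a UMIs in 32 cells and the old library 154 UMIs in 12 cells. Scaled by the total UMIs of the cells concerned (CPM), the level was 2.13 in the young library (exact Poisson 95% interval 1.90–2.38) and 1.29 in the old (1.10–1.51), a log2 ratio of old over young of -0.72 (exact binomial interval -1.01 to -0.44). The UMIs were concentrated in single cells. In the young library the cell with the most held 57, 3 cells held 47.4% of all Il17a UMIs, and 13 of the 32 cells held 1 each. In the old library 1 cell held 75, 3 cells held 68.8%, and 3 of the 12 cells held 1 each, so the intervals, which treat UMIs as independent, are narrower than the spread between cells.

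Cells were grouped by clustering without the 7 members among the clustering genes, and clusters were named by marker genes. T-like cells (771 young, 2864 old) formed clusters 0, 6 and 20, ILC2-like cells (1683 young, 413 old) formed cluster 1, and proximal tubule (PT)-like cells were the most numerous (6234 young, 3523 old). The T-like name held less well in the young library. A UMI of Cd3d, Cd3e or Cd3g, which encode the CD3 chains of the T cell receptor complex, was found in 91.4% of old but only 58.8% of young T-like cells, and within cluster 6 in 95.3% of old but only 59.1% of young cells. Young and old cells of cluster 6 also differed in lineage genes. In cluster 6 Ccr6 was detected in 21.9% of young cells against 1.61% of old cells, and Cd4 in 10.2% against 70.5%. Most old cells of cluster 6 thus held CD3 and Cd4, while young cells of cluster 6 were a mixture with and without CD3, and a ratio between the ages within it compares these 2 mixtures.

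Most Il17a UMIs lay in cluster 6, with 163 of 310 in the young library and 118 of 154 in the old. It stood at 131 CPM (111–152) in the 215 young and at 19.6 CPM (16.2–23.5) in the 1121 old cells of the cluster. In young cells 16 of 215 carried it (7.44%, exact Clopper-Pearson 95% interval 4.31–11.8%), and in old cells 7 of 1121 (0.624%, 0.251–1.28%). ILC2-like cells stood at 6.06 CPM (4.52–7.95) from 52 UMIs in 12 young cells and at 5.26 CPM (2.72–9.19) from 12 UMIs in 2 old cells, and these 2 intervals overlapped. Cluster 20, a small cluster that met the rule for T-like cells and had cell cycle genes such as Mki67 and Top2a among its leading genes, held 61 UMIs in 3 of its 91 young cells (38.1 CPM) and none in its 110 old cells. Of the 61 UMIs, 56 lay in 1 cell with 6 CD3 UMIs. The other carriers of cluster 20, with 4 and 1 Il17a UMIs, held no CD3 and no Trac UMI. They held 52 and 23 UMIs of Gata3, an ILC2 marker gene here, and 18 and 24 of Il13. The remaining carriers lay in unnamed clusters with a high share of predicted doublets, 1 young and 1 old cell in cluster 23 and 2 old cells in cluster 14. Cluster 23 stood at 13.6 CPM (9.39–19.0) in its 131 young cells and at 21.6 CPM (7.94–47.1, from 6 UMIs) in its 11 old cells, an interval that spans the level of old cluster 6. No Il17a UMI was found in the 6234 young and 3523 old PT-like cells, which allows up to 0.0263 and 0.0454 CPM, so free Il17a RNA was not detectable in the largest class. Cluster 0, the largest T-like cluster, and cluster 2, an unnamed cluster with T cell receptor transcripts, held no Il17a UMI in either library.

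**Figure D1:**
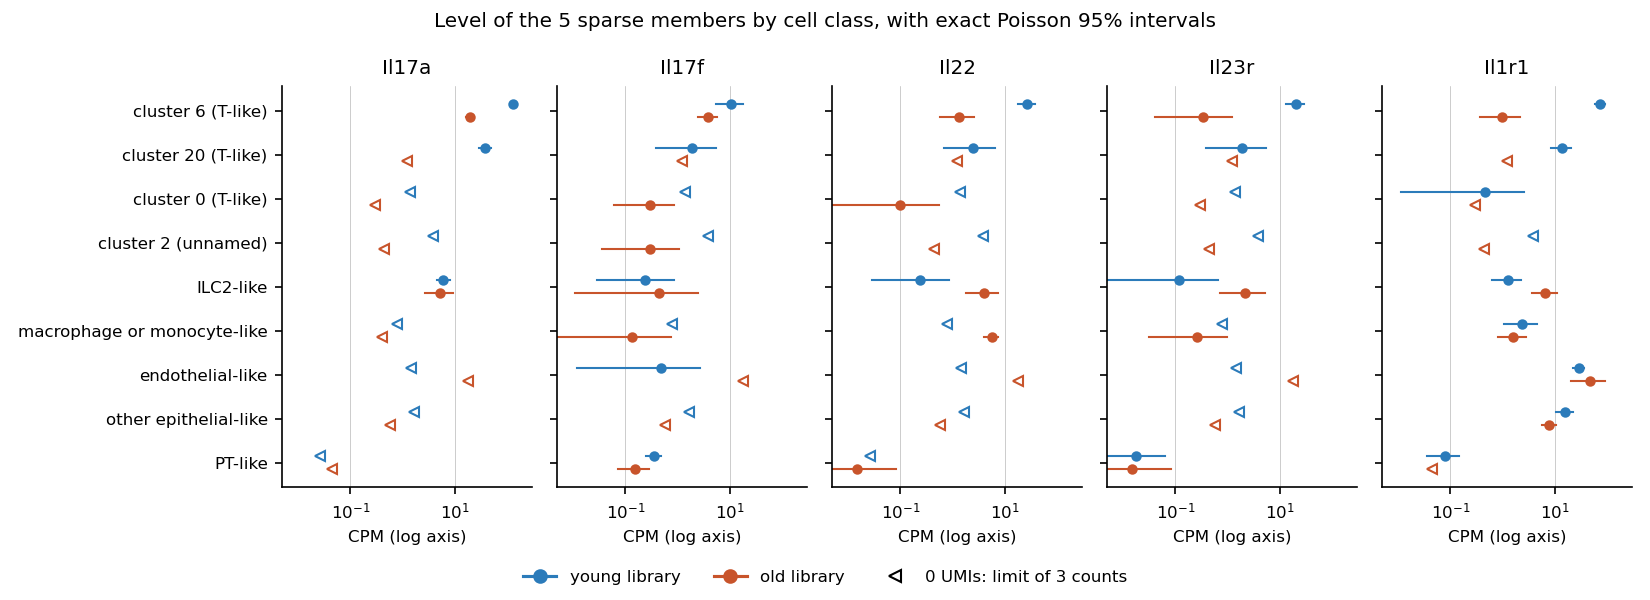
CPM of Il17a, Il17f, Il22, Il23r and Il1r1 (log axis) in 9 cell classes of the young and old libraries, with exact Poisson 95% intervals. Open triangles are the limit of 3 counts for a class with no UMI. The young cells of cluster 6 are the highest point for Il17a, Il17f, Il22, Il23r and Il1r1 among the young classes, and Il1r1 also stands at 28.6 CPM in young endothelial-like cells.

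Il17f, which encodes the closest relative of IL-17A, followed Il17a in lymphoid cells but had a second location. The young library held 61 UMIs in 49 cells and the old library 41 UMIs in 20 cells (0.419 and 0.344 CPM), and the log2 ratio of -0.28 had an interval that spanned 0 (-0.89 to 0.31). In cluster 6 young cells stood at 10.4 CPM (5.55–17.8), from 13 UMIs in 6 cells, and old cells at 3.82 CPM (2.42–5.74), from 23 UMIs in 2 cells. Of the 23 old UMIs, 18 came from the 1 cell that also held 75 Il17a UMIs. PT-like cells held 40 Il17f UMIs in 36 young cells and 10 UMIs in 10 old cells, nearly all as single UMIs (32 of the 36 and 10 of the 10). The PT-like cells with Il17f were deep, with medians of 30637.5 and 30329.5 UMIs against 15305 and 15695 in all PT-like cells. Cluster 19, a small PT-like cluster with a median of 35635 UMIs in its 209 young cells, held 12 of the 40 young UMIs. Whether these single UMIs are Il17f transcripts of tubule cells was not tested, and no PT-like cell of this clustering held Il17a.

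Il22, which encodes the cytokine of type 3 cells that acts on epithelium, was carried by 18 young cells with 41 UMIs and by 7 old cells with 62 UMIs. Its level was 0.520 CPM in the old library and 0.282 CPM in the young (log2 ratio 0.89, 0.29 to 1.49), the only member with a higher level in the old library. This direction rested on 1 old cell with 42 of the 62 UMIs. That cell was grouped with macrophage or monocyte-like cells but held no CD3 and no Lyz2 UMI, 2 Trbc UMIs, and UMIs of Il7r (11), Ccr6 (5), Il1r1 (3), Il23r (2) and Tmem176a (38). Within T-like and ILC2-like cells, a choice made after the data were seen, the ratio turned to -1.74. In cluster 6 Il22 stood at 26.5 CPM (18.2–37.2) in young cells, with 33 UMIs in 13 of 215 cells, and at 1.33 CPM (0.574–2.62) in old cells, where 1 cell held all 8 UMIs. Il22 has a near-identical copy, Iltifb, 79581 bases away on chromosome 10, which had 5 UMIs in 4 young cells, 2 of them with Il22, and none in old cells. Reads of the 2 genes may have been divided between them.

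The receptor genes Il23r and Il1r1 were highest among lymphoid cells in the young cluster 6, and both were far lower in the old cluster 6. Il23r, the IL-23-specific receptor chain, had 32 UMIs in 25 young cells and 12 UMIs in 8 old cells (0.220 and 0.101 CPM). Young cells of cluster 6 held 25 of the 32 UMIs, in 19 cells (20.1 CPM, 13.0–29.6), and old cells of cluster 6 held 2 UMIs in 2 cells (0.333 CPM). In the old library ILC2-like cells held 5 Il23r UMIs, in 2 cells, and both of these cells had CD3 UMIs (11 and 23). No cell held more than 3 UMIs of Il23r, so cells without a UMI cannot be taken to lack the transcript at this depth.

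Il1r1, the signalling receptor of IL-1α and IL-1β, was the most widely spread of the 5 sparse members. The young library held 236 UMIs in 152 cells (1.62 CPM) and the old library 83 UMIs in 52 cells (0.696 CPM), a log2 ratio of -1.22 (-1.60 to -0.85). In cluster 6 it was detected in 45 of 215 young cells (20.9%, 73.0 CPM, 58.8–89.6) and in 4 of 1121 old cells (0.357%, 0.998 CPM, 0.366–2.17). Outside lymphocytes, young endothelial-like cells stood at 28.6 CPM (21.8–36.8) and old ones at 46.7 CPM (20.2–92.0), the latter from 8 UMIs in only 26 cells. Other epithelial-like cells, of the loop, distal tubule and collecting duct, stood at 15.7 CPM (10.4–22.7) and 7.79 CPM (5.56–10.6). The log2 ratio of old over young was -1.01 (-1.74 to -0.26) in other epithelial-like cells and 0.71 (-0.57 to 1.78) in endothelial-like cells, against -6.19 (-7.68 to -5.02) in cluster 6. ILC2-like cells went the other way, with 6.57 CPM (3.68–10.8) in old cells against 1.28 CPM (0.640–2.29) in young ones.

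Over all kept cells, none of the 6 members with at least 100 UMIs summed over both libraries was at least 2-fold higher in the old library and 1 (Il1r1) was at least 2-fold lower, where 12.3% and 4.04% of 14644 genes were. Within T-like cells all 4 members with enough UMIs were at least 2-fold lower in the old library, where 3.34% of 9665 genes were higher and 5.86% lower. Il1r1 reached the minimum of 100 UMIs only through the young library (114 young and 6 old UMIs), so its place in this count is partly fixed by the minimum. The log2 ratios of the 4 members were -2.82 for Il17a, -6.14 for Il1r1, -2.57 for Tmem176a and -2.44 for Tmem176b. The T-like cells of the old library had other proportions of clusters 0, 6 and 20 and more CD3, and fewer type 3 cells per class cannot be told apart from less RNA per type 3 cell. Within PT-like cells neither Tmem176a nor Tmem176b, the 2 members with enough UMIs there, differed 2-fold (2.89% of 12265 genes were higher and 2.32% lower). Within macrophage or monocyte-like cells Tmem176b was at least 2-fold lower in the old library, where 3.38% of 8321 genes were lower and 4.18% higher. Tmem176a did not differ 2-fold there. The PT marker genes described in the next paragraph were lower in old cells of this class too (596 against 1242 CPM).

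Tmem176a and Tmem176b behaved unlike the other members, since tubule cells carried most of their UMIs. Tmem176a was found in 8882 young and 5179 old cells (894 and 622 CPM) and Tmem176b in 9076 and 5359 cells (997 and 753 CPM). Only 3.18% of the young and 2.16% of the old Tmem176a UMIs lay in T-like or ILC2-like cells. PT-like cells had the same Tmem176b level in both libraries within counting error (1146 and 1145 CPM), and the lower level in the old library as a whole (log2 ratio -0.40) went with fewer PT-like cells. Because tubule RNA is abundant in these preparations, each level was set beside the summed UMIs of 7 PT marker genes in the same cells. In PT-like cells there were 0.183 (young) and 0.225 (old) Tmem176b UMIs per PT marker UMI. The ratio in free RNA was not measured, and the part of tubule RNA in the other classes was not tested. Cluster 2 stood at 0.170 and 0.223, close to these, and B-like cells at 0.190 (young) and 0.380 (old). Macrophage or monocyte-like cells stood at 0.440 at both ages, so their lower Tmem176b level in the old library went with fewer PT marker UMIs. Young cells of cluster 6 stood at 2.51 (557 CPM), ILC2-like cells at 1.26 (young, 366 CPM) and 3.79 (old, 464 CPM), and old cells of cluster 6 at 0.550 (66.2 CPM).

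**Figure D2:**
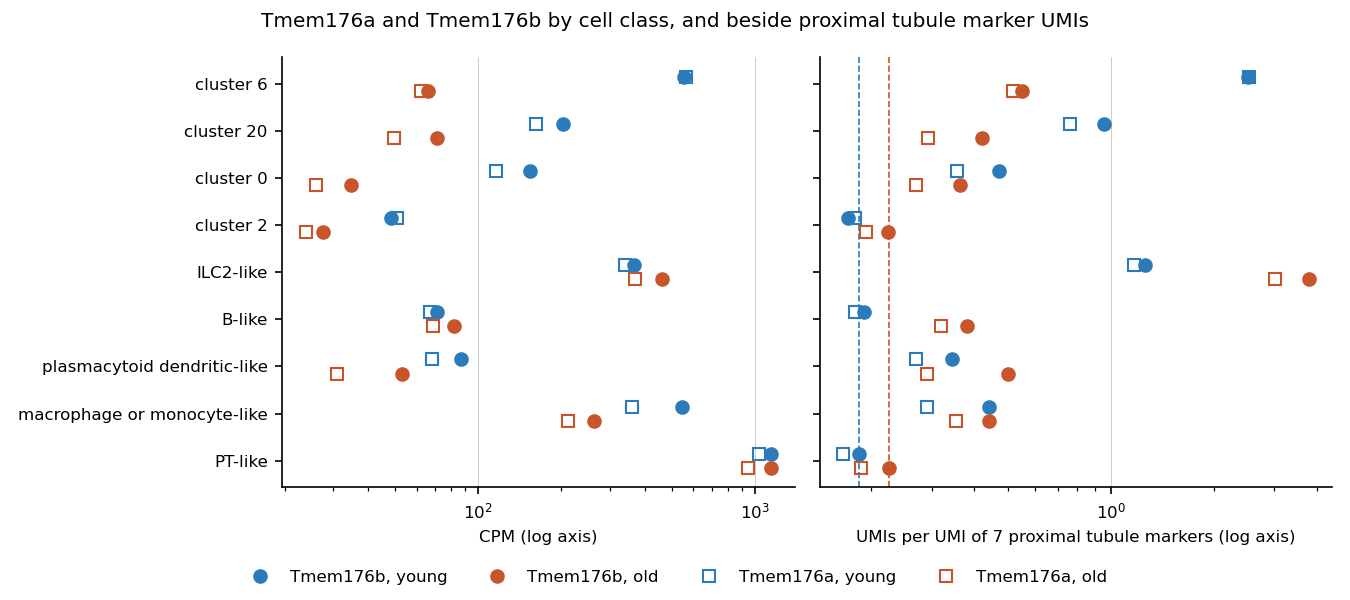
Tmem176a (open squares) and Tmem176b (filled circles) in 9 cell classes of both libraries, as CPM (left) and as UMIs per UMI of 7 proximal tubule markers (right), both on log axes. The dashed lines mark the Tmem176b ratio of PT-like cells (0.183 young, 0.225 old). Cluster 2 lies at these lines, while young cells of cluster 6 (2.51) and ILC2-like cells (1.26 young, 3.79 old) lie far to the right of them.

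In old cells of cluster 6 the level of the Tmem176 pair was higher in the few cells without CD3, whereas most of its UMIs (251 of 398 for Tmem176b) lay in the many cells with CD3. Old cells of cluster 6 without CD3, only 53 cells, had 609 CPM of Tmem176b (514–716), close to the 579 CPM (514–649) of the 88 young cells without CD3. Old cells with CD3 (1068 cells) stood at 43.5 CPM (38.3–49.2) and young cells with CD3 (127 cells) at 542 CPM (490–597). The young and old cells without CD3 had overlapping intervals, and those with CD3 did not. Cells with CD3 in this cluster therefore differed between the libraries in Tmem176b and cells without CD3 did not differ beyond counting error. Tmem176a and Tmem176b were detected together in 1210 young T-like or ILC2-like cells, which are 79.1% of the Tmem176a carriers and 75.9% of the Tmem176b carriers there, and in 411 old cells (57.2% and 53.9%).

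The cells with Il17a were then read 1 by 1 for their T cell receptor transcripts. By constant region UMIs, 27 of 32 young and 10 of 12 old carriers held Trac or Trbc (Trbc1 or Trbc2) without Trdc, 2 and 1 held Trdc without Trac, 1 young cell held both Trdc and Trac, and 2 and 1 held none of them. Trac encodes the constant region of the α chain, Trbc1 and Trbc2 that of the β chain, and Trdc that of the δ chain. Trbc alone did not mark a T cell here, since 72.4% of the ILC2-like cells held it in the young library and 69.7% in the old, while 18.1% and 19.9% held CD3. By CD3 the 2 libraries differed. All 12 old carriers held a CD3 UMI and 9 held Trac. Of the 32 young carriers, 17 held a CD3 UMI (53.1%, 34.7–70.9%) and 9 held Trac (28.1%, 13.7–46.7%). The Clopper-Pearson interval for 12 of 12 old carriers is 73.5–100%. Over all kept cells, a CD3 UMI was also found far more often in the old library (4995 of 10232 cells) than in the young (1215 of 11429). Cd4 was detected in 5 of 12 old carriers and in 1 of 32 young carriers, and no old carrier and 3 young carriers held Cd8a or Cd8b1.

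The 15 young carriers without CD3 held 111 of the 310 Il17a UMIs. Gata3, the master regulator of ILC2s and also expressed by T cells, was found in 13 of these 15, and Il1rl1, the IL-33 receptor, in 8. Of the 15, 8 lay in the ILC2-like cluster, and all 8 held Gata3, 6 held Il1rl1 and none held Ccr6, and another 4 lay in cluster 6. The 17 young carriers with CD3 held 199 Il17a UMIs, and 10 held Ccr6, the chemokine receptor of type 3 cells.

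Trdc was detected in fewer carriers than Trac in both libraries, although both were sparse in young carriers, and Tcrg constant genes were found in more of those. Trdc was detected in 3 young and 1 old carrier, and a Tcrg constant gene in 23 young and 4 old carriers. Tcrg constant transcripts were also present in ILC2-like cells, at 37.5% in the young library and 44.6% in the old, and so did not mark γδ T cells. Variable genes with names in Trav, Trbv, Trdv or Tcrg-V were rarely caught. Tcrg-V4 was found in 3 young and 3 old carriers, all of them with CD3, Trdv4 in 2 young carriers without CD3, Trbv2 in 3 old carriers, and Trbv29 in 1 young carrier. Genes with names in Trgv were outside this search. One of them, Trgv2, had 5 UMIs in 3 of the 11 old carriers of clusters 1, 6 and 14. Cd163l1, which encodes a scavenger receptor of IL-17-producing γδ T cells, had 70 UMIs in 4 young carriers and none in old carriers. Of the 70 UMIs, 30 lay in a cell of cluster 20 without CD3, Trdc or Tcrg constant UMIs, which held 23 Gata3 UMIs. Another 24 lay in a cell with CD3 but no Trdc. The remaining cells, with 8 UMIs each, held Trdc. All 4 cells held only 1 Il17a UMI each. Of the 6 carriers with Tcrg-V4, those of the young library lay in cluster 6 and those of the old library 1 each in clusters 1, 6 and 14.

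**Figure D3:**
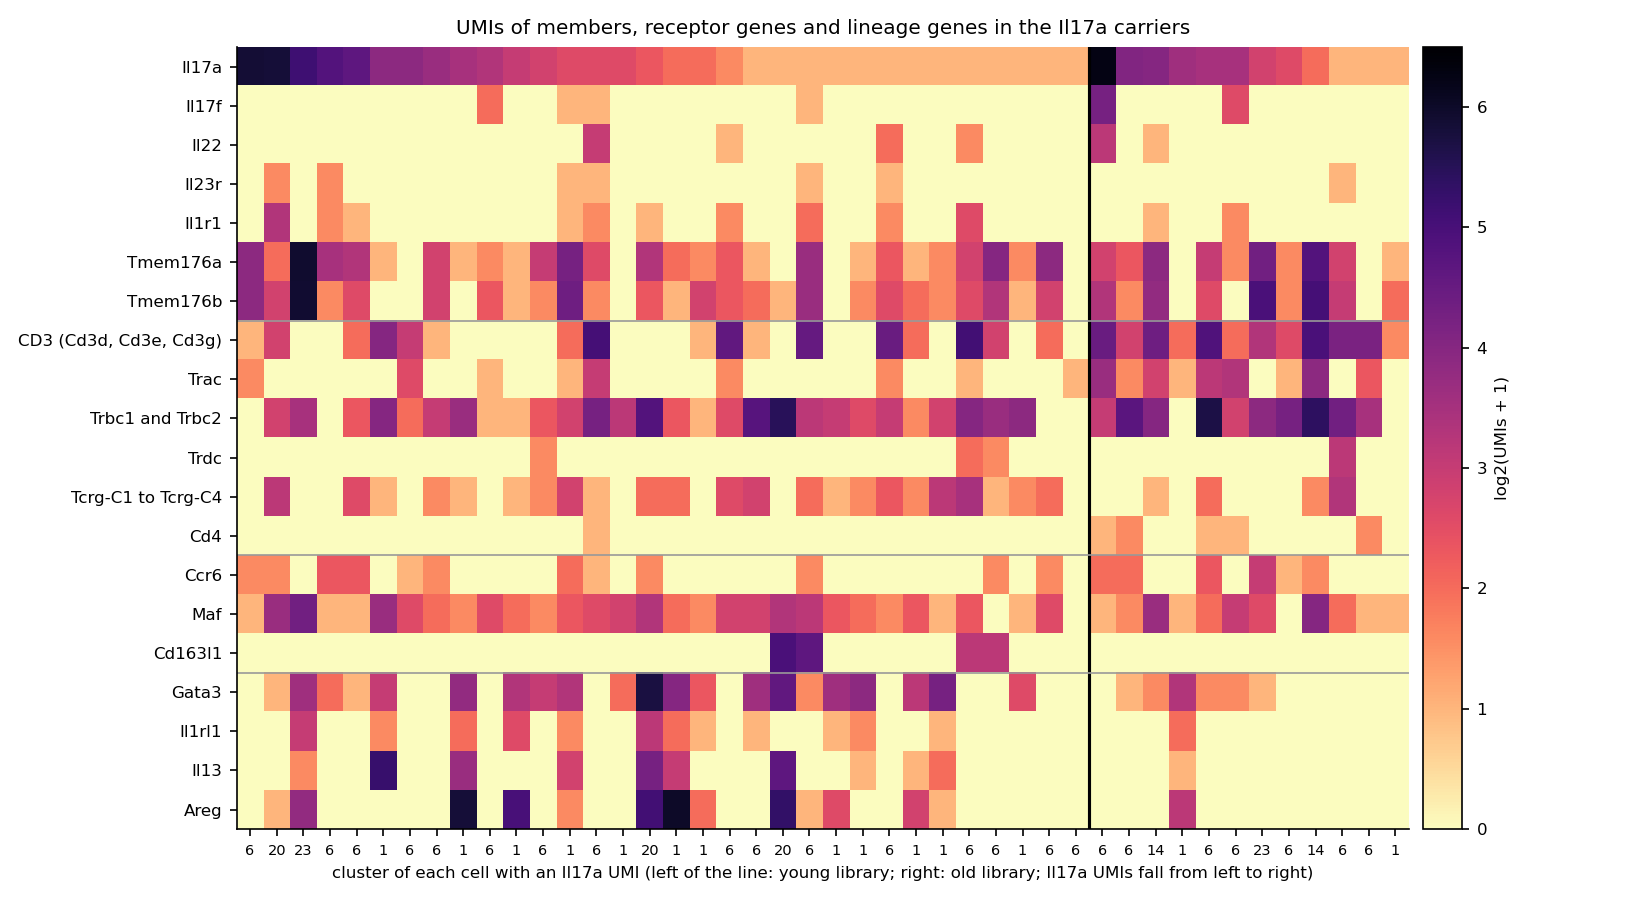
UMIs (colour, log2 of UMIs + 1) of the members, T cell receptor genes, type 3 genes and ILC2 genes in each of the 44 cells with an Il17a UMI, 32 young (left of the line) and 12 old (right), with the cluster of each cell below. Every old carrier shows CD3, against 17 of the 32 young carriers, and Il13 and Areg appear mainly in young carriers of clusters 1 and 20.

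Single carriers show the range. The young cell with 57 Il17a UMIs, in cluster 6, held 1 CD3, 2 Trac, 2 Ccr6 and 14 Tmem176b UMIs, and the young cell with 56, in cluster 20, held 6 CD3, 9 Il1r1 and 2 Il23r UMIs. The old cell with 75 Il17a UMIs, in cluster 6, held 21 CD3, 12 Trac, 18 Il17f, 8 Il22, 3 Ccr6 and 1 Cd4 UMI. The third young cell, with 34 Il17a UMIs, was called a doublet, with 50632 UMIs in all and 60 of Tmem176a. Of the 12 old carriers, 3 were called doublets too and held 24 of the 154 Il17a UMIs. The other 9 old carriers held only 9 of the 243 PT marker UMIs found in old carriers, and all 9 held CD3. Of the 32 young carriers, 17 held Y-linked UMIs without Xist and 6 the reverse, and of the 12 old carriers 7 and 4, so carriers came from both kinds of cells in each library.

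Young carriers of the 2 main clusters differed in the other genes they held. Of the 16 in cluster 6, 9 held Ccr6, 5 Gata3, 1 Areg and none Il13. Of the 12 in the ILC2-like cluster, 1 held Ccr6, 12 Gata3, 9 Il1rl1, 8 Areg and 7 Il13, the type 2 cytokine gene, and 4 held CD3. These genes also shaped the clusters, so the contrast describes where Il17a was found and tests nothing. When the libraries were merged without integration, 15 of the young and 5 of the old carriers fell in 1 cluster of 269 young and 97 old cells that met the marker rule for ILC3-like cells, and 13 young carriers lay in the ILC2-like cluster. Another old carrier, with 3 Il17a UMIs, fell in a PT-like cluster.

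The carriers of the other sparse members were read for the same transcripts, and their counts are small. Among young T-like and ILC2-like cells, Il23r was held by 22 cells, of which 15 held CD3, 5 Trdc without Trac and 17 Ccr6. Il1r1 was held by 65, of which 42 held CD3, 18 Trdc and 34 Ccr6, and Il22 by 17, of which 11 held CD3 and 6 Trdc. Il17f was held by 10 such cells, of which 6 held CD3 and 1 Trdc. For Trdc the intervals were 7.82–45.4% of Il23r, 17.3–40.2% of Il1r1, 14.2–61.7% of Il22 and 0.253–44.5% of Il17f carriers, all of which overlapped that of the young Il17a carriers in these classes (3 of 31, 2.04–25.8%). Old carriers were too few for a share, with 4 cells for Il23r, 11 for Il1r1, 4 for Il22 and 6 for Il17f, and 1, 0, 0 and 0 of them held Trdc.

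Co-detection was read in the clusters that together held at least 90% of the Il17a carriers of a library. In the young library these were clusters 1, 6 and 20, with 31 carriers (median 6819 UMIs) and 1958 other cells (median 5099 UMIs). Each of the other sparse members was found more often in carriers. Il1r1 was held by 32.3% of carriers (16.7–51.4%) and 2.76% of other cells, Il23r by 19.4% (7.45–37.5%) and 0.817%, and Il17f and Il22 by 12.9% (3.63–29.8%) each against 0.306% and 0.664%. Without thinning, the carriers' interval lay above that of the other cells for each of these 4. Tmem176a was held by 83.9% (66.3–94.5%) of carriers and 69.2% of other cells and Tmem176b by 80.6% (62.5–92.5%) and 72.0%, with intervals that reached the other cells' value. Thinned to 1000 UMIs per cell, which left 30 carriers, 2 carriers (6.67%) and 0.683% of other cells held Il1r1, 1 carrier held each of Il17f, Il22 and Il23r, and Tmem176a stood at 50.0% (31.3–68.7%) against 28.0%. At this depth the intervals of young carriers and other cells overlapped for all 4 sparse members, for Il1r1 at 0.818–22.1% and 0.364–1.17%. Thinned to 2000 UMIs, they did not overlap for Il1r1 (12.3–45.9% and 0.935–2.09%), Il17f and Il22 but did for Il23r. In the old library (11 carriers), thinned to 1000 UMIs, they did not overlap for Il17f and Il22, which 2 carriers and 1 carrier held. No old carrier held Il23r or Il1r1 at this depth.

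**Figure D4:**
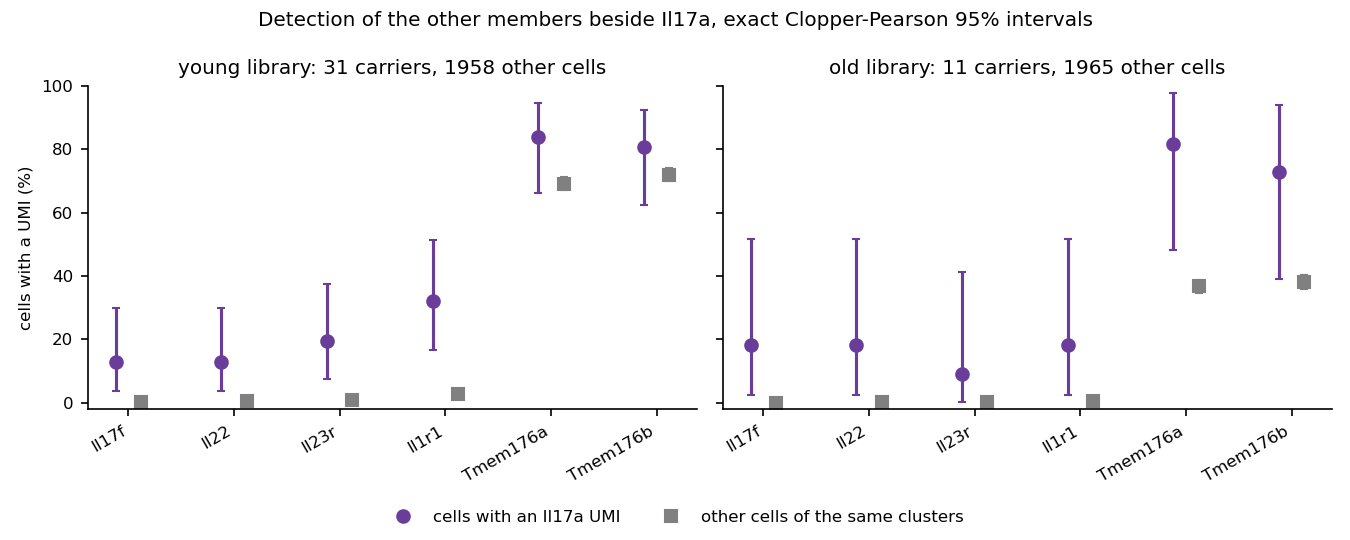
Percentage of cells with a UMI of each other member among Il17a carriers (circles) and among the other cells of the same clusters (squares), not thinned, with exact Clopper-Pearson 95% intervals. In the young library (31 carriers) Il1r1 reaches 32.3% in carriers against 2.76%, and in the old library (11 carriers, 2 of them called doublets) Tmem176a reaches 81.8% against 36.7%.

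Within cluster 6 alone the young carriers were set against cells of their own cluster. Of the 16 young carriers there, 7 held Il1r1 (43.8%, 19.8–70.1%) against 19.1% of the 199 other cells, and 4 held Il23r (interval 7.27–52.4%) against 7.54%, both with overlapping intervals. Tmem176a was held by 14 of the 16 (61.7–98.4%) and by 63.8% of other cells (56.7–70.5%), again with overlap. After thinning to 1000 UMIs, 12 of 15 young carriers (80.0%, 51.9–95.7%) and 29.4% of other cells held Tmem176a, and 9 of 15 (32.3–83.7%) and 35.1% (28.4–42.2%) held Tmem176b. Thinned to 2000 UMIs, Il1r1 was held by 7 of 15 (46.7%, 21.3–73.4%) and 11.6% (7.33–17.2%), without overlap, so which members separated depended on the depth. In old cells of cluster 6, 6 of 7 carriers held Tmem176a (85.7%, 42.1–99.6%) against 16.0% of 1114 other cells, and after thinning 5 of 7 (71.4%, 29.0–96.3%) against 4.37%. Beside PT markers, old carriers of cluster 6 had 3.57 Tmem176b UMIs per PT marker UMI, from only 7 PT marker UMIs, and the other cells 0.520, while young carriers had 3.29 and the other cells 2.44. The part of tubule RNA in these differences was not tested. Thinned to 1000 UMIs, the intervals of carriers and other cells did not overlap for Tmem176a in cluster 6 of either library, and thinned to 500 UMIs they did in both.

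The members were found together in few cells. In the young library 32 cells held at least 2 of the 5 sparse members, 23 of them in cluster 6, and 1 cell held all 5. That cell, a young cell of cluster 6, held 5 Il17a, 1 Il17f, 7 Il22, 1 Il23r and 2 Il1r1 UMIs, beside 32 CD3 and 7 Trac UMIs. In the old library 5 cells held at least 2. Among young T-like and ILC2-like cells, 16 cells held both Il23r and Il1r1, which are 72.7% of the Il23r carriers and 24.6% of the Il1r1 carriers. Another overlap, of 9 cells, was that of Il22 and Il1r1 (52.9% of the Il22 and 13.8% of the Il1r1 carriers). All 22 young Il23r carriers held Tmem176a and Tmem176b, where 1529 and 1595 cells held these 2 genes.

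Across all 21661 kept cells, the genes detected in the most similar sets of cells to Il17a were ranked by the Jaccard index, the share of cells with either gene that hold both, over 17098 genes with a UMI in at least 20 cells. The 10 most similar genes held 4 members. Il23r was at rank 1 (0.100, 7 shared cells), Il22 at rank 2 (0.0952), Il17f at rank 8 (0.0561) and Il1r1 at rank 10 (0.0508), and Ccr6 stood at rank 9 (0.0534, 18 shared cells). The others were Prr29 (0.0794), Actn2 (0.0750, 27 shared cells of the 343 that held it), Rbm24 (0.0723), Gm9961 (0.0714) and 1700012B07Rik (0.0625). Tmem176a and Tmem176b ranked 3379 and 4066, since 14061 and 14435 cells held them. The index is a description over cells of 2 libraries and favours genes that are about as rare as Il17a.

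The level of each gene in young Il17a carriers was then set against that in the other 1958 cells of clusters 1, 6 and 20. Of 8260 genes with at least 100 UMIs, 3.89% were at least 2-fold higher and 9.81% at least 2-fold lower in the 31 carriers, a background read from a small number of carriers. Of the type 3 programme list, 7 of the 21 genes with enough UMIs were higher and none lower, with a median log2 ratio of 0.61 against 0.00 over all genes. The highest were Cd163l1 (3.35, from only 4 carriers, and -0.561 among carriers with at least 2 Il17a UMIs), Actn2 (3.16, 2.72 to 3.57), which encodes the actin-crosslinking protein α-actinin-2, and Ccr6 (2.90, 2.25 to 3.50). Aqp3, an aquaglyceroporin (1.84, 0.90 to 2.66), Zbtb16, the transcription factor PLZF of innate-like lymphocytes (1.70, 0.72 to 2.55), and Il18r1, the IL-18 receptor (1.35, 0.89 to 1.77, but -0.34 within cluster 6), were also higher.

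Of the members, Il1r1 was higher (3.58, 2.92 to 4.20) among the 3 with enough UMIs, and Tmem176a (0.75, 0.51 to 0.98) and Tmem176b (0.36, 0.09 to 0.61) were less than 2-fold higher. Il1r1 stood at 103 CPM in carriers, from 28 UMIs in 10 cells, and at 8.60 CPM in other cells. Of 9 receptor class genes with enough UMIs, 5 were higher and none lower, namely Cd3g (1.56), Cd3d (1.54), Trac (1.35), Cd3e (1.25) and Trbc1 (1.02), while Trdc stood at -0.50 (-1.82 to 0.56). Of 8 other cytokine genes, Il13 (2.68, 109 UMIs in 9 carriers), Il2 (1.68) and Il4 (1.31, -0.04 to 2.40) were higher. Ifng, the type 1 cytokine gene, was lower, with no UMI in the 31 carriers against 314 UMIs in other cells, which puts the log2 ratio at -1.35 or lower by the limit of 3 counts.

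Il12rb1, which encodes the chain that pairs with IL-23R, was higher (1.64, 0.90 to 2.29) among 3 receptor chain and inhibitor genes. Of 6 response genes, which IL-17 induces in target cells, Cxcl2, Nfkbiz, S100a8 and S100a9 were lower and none higher, and neither of the 2 inducing cytokine genes, Tgfb1 and Il1b, passed 2-fold. S100a8 had 1 UMI in carriers and an interval that spanned 0 (-6.80 to 1.02), and S100a9 had 0 UMIs there, so its ratio is a bound. Within young cluster 6, 2 of 3 response genes were lower, and within the ILC2-like cluster 0 of 4. The 10 genes with the highest ratio among those detected in at least 25% of carriers were Il1r1, Actn2, Ccr6, Ly6g5b (2.73), Jaml (2.71), Il13, Grasp (2.56), Clnk (2.55), Avpi1 (2.44) and Gm20069 (2.26). Il1r1 passed the minimum of UMIs only with the carriers. Jaml encodes a junctional adhesion molecule of leukocytes and Clnk an immunoreceptor adaptor. Ly6g5b was held by 18 of the 31 carriers and 10.9% of other cells, and Actn2 by 19 carriers and 6.33%.

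**Figure D5:**
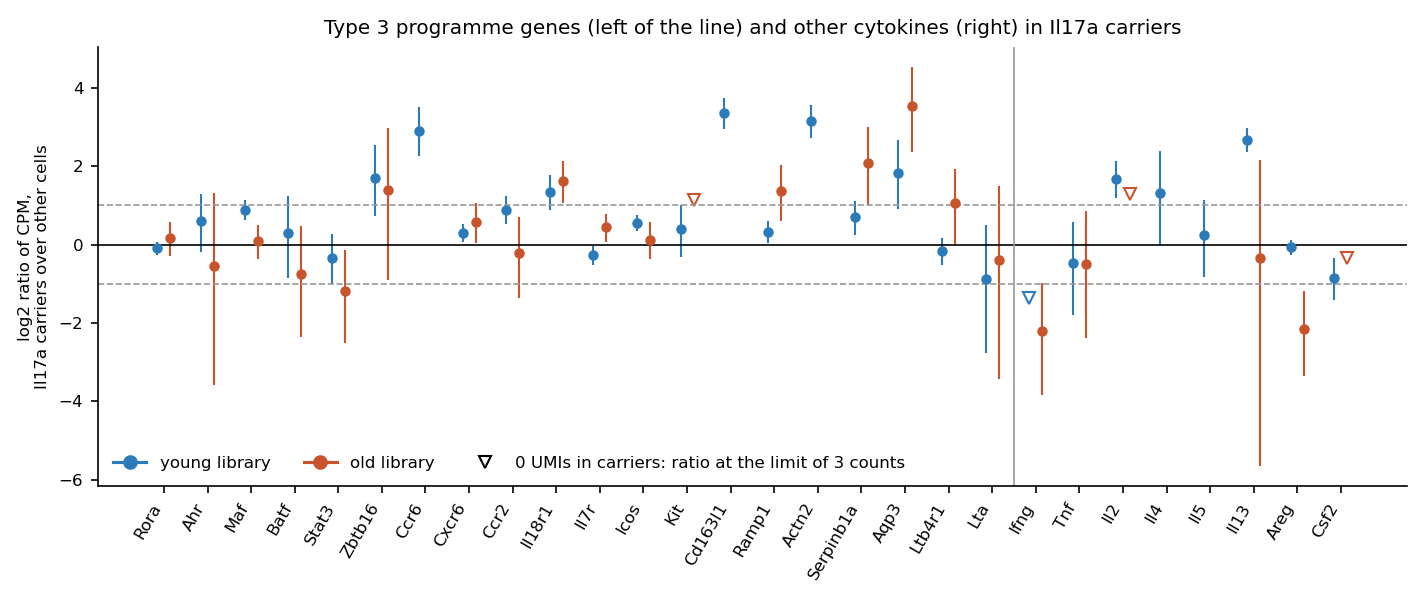
Log2 ratio of CPM in Il17a carriers over the other cells of the same clusters for genes of the type 3 programme list (left of the line) and other cytokine genes (right), with exact binomial 95% intervals, for genes with at least 100 UMIs in that library. Triangles mark genes with 0 UMIs in carriers and are upper bounds. Cd163l1 (3.35), Actn2 (3.16) and Ccr6 (2.90) are the highest young points, although Cd163l1 was below 0 among carriers with at least 2 Il17a UMIs, and Aqp3 (3.55) is the highest old point. In the old library Aqp3 reached the minimum of 100 UMIs only with the carriers.

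These ratios depended on the cluster in which they were read. Within young cells of cluster 6, 1.37% of 2051 genes were at least 2-fold higher and 7.51% at least 2-fold lower in the 16 carriers. Of 15 type 3 programme genes 2 were higher, Ccr6 (1.40, 0.62 to 2.11) and Actn2 (1.34, 0.74 to 1.90), and none lower. Ccr6, with 89 UMIs in the other cells of cluster 6, passed the minimum of UMIs only with the carriers. Of 8 receptor class genes none was higher there and 1, Trdc (-1.39, -2.72 to -0.32), was lower, with Trac at 0.21, Cd3e at 0.04 and Trbc1 at -0.98. Tmem176a was higher (1.11, 0.80 to 1.40), and Ifng had no UMI in carriers against 153 in the other cells. Within the ILC2-like cluster 5.92% of 7316 genes were higher and 10.5% lower in the 12 carriers, and 4 of 16 type 3 programme genes were higher, with Actn2 at 3.67 (2.81 to 4.44), and 1, Lta, lower (-1.56, -6.87 to 0.93, from 1 UMI in carriers). Il13 stood at 3.17 (2.78 to 3.53) and Il2 at 2.73 (2.22 to 3.19) in these carriers.

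The 11 old carriers gave less precise ratios, and 2 of them, in cluster 14, were called doublets. These held 23901 and 36853 of the 104521 UMIs of the 11 carriers, and 14 and 27 of their 69 Tmem176a UMIs. Ratios over all 11 thus rest in large part on these cells. Of 9147 genes, 10.7% were at least 2-fold higher and 10.2% at least 2-fold lower, and the median over all genes was 0.18. Of 19 type 3 programme genes 7 were higher and 1, Stat3, was lower. Those whose interval lay above 0 were Aqp3 (3.55, 2.37 to 4.53), Serpinb1a (2.09, 1.02 to 2.99), Il18r1 (1.62, 1.07 to 2.13) and Ramp1, a co-receptor chain for the neuropeptide CGRP (1.36, 0.60 to 2.03). In old cells of cluster 6 alone Il18r1 stood at 1.97 and Ramp1 at -0.97, the latter from 1 UMI in carriers. Zbtb16 (1.40, -0.90 to 2.98) and Ltb4r1 (1.05, -0.02 to 1.94) had intervals that reached below 0. Tmem176a was higher (1.02, 0.65 to 1.36) and Ifng lower (-2.21, -3.84 to -0.99). Within old cells of cluster 6, Tmem176a (3.61, 2.99 to 4.18) and Tmem176b (3.40, 2.75 to 3.99), the 2 members with enough UMIs, were both higher in the 7 carriers, where 12.4% of 6174 genes were higher and 7.08% lower.

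The genes around the members were read across the 2 libraries for context. Among all kept cells 4 of 26 type 3 programme genes were at least 2-fold higher in the old library (Batf, Irf4, Stat3 and Il18r1) and 3 were lower (Cd163l1 at -3.01, Ltb4r1 at -1.45 and Ramp1 at -1.25), where 12.3% of all genes were higher and 4.04% lower. Batf, Irf4 and Stat3 encode transcription factors that many activated lymphocytes use. Within T-like cells 1 of 23 was higher and 13 were lower, where 3.34% and 5.86% of 9665 genes were. The lower genes included Cd163l1 (-6.59), Ltb4r1 (-4.57), Ccr6 (-4.02), Zbtb16 (-3.35) and Ramp1 (-3.12), while Maf (0.02) and Il7r (0.30) did not differ 2-fold. As with the members, these ratios compare young and old T-like cells of unlike CD3 content.

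Among the cytokines that can induce Il17a, Tgfb1 was held by 20 of the 31 young carriers (224 CPM, against 247 CPM in other cells of their clusters). Il1b, which encodes IL-1β, was highest in neutrophil-like cells (4972 CPM young, 5811 CPM old), followed by macrophage or monocyte-like cells (595 and 1009 CPM), and over all kept cells its log2 ratio was 1.61. Il1a had a ratio of 3.63, from 12 young and 122 old UMIs. Il23a, the IL-23-specific subunit, had 26 young and 37 old UMIs and Il12b, the shared subunit, 10 and 20, too few for a call. Of the inhibitors, Il1rn, the IL-1 receptor antagonist, had a ratio of 2.99 and Il1r2, the decoy receptor, 1.24, and these were the 2 of 8 receptor chain and inhibitor genes at least 2-fold higher in the old library.

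Transcripts of IL-17 receptor chains were found in lymphoid, myeloid and tubule cells. Il17ra, the shared receptor chain, stood between 53.7 and 61.4 CPM in T-like and between 252 and 295 CPM in neutrophil-like cells of the 2 libraries. Il17re, the IL-17C receptor chain, was highest in other epithelial-like cells (51.6 CPM young, 39.1 old) and next in young cells of cluster 6 (30.5 CPM), and Il17rc stood at 26.9 and 32.3 CPM in other epithelial-like cells. Il22ra1, the specific chain of the IL-22 receptor, had 18 young and 16 old UMIs. Of 9 response genes with enough UMIs, 6 were at least 2-fold higher in the old library and none lower (12.3% and 4.04% of all genes), namely Reg3g (6.57, 4.70 to 9.63, from 2 and 156 UMIs), Saa3 (3.96), Lcn2 (2.42), S100a8 (1.89), S100a9 (1.63) and Cxcl1. S100a8 and S100a9 are neutrophil genes, Lcn2 was highest in neutrophil-like cells (909 and 2865 CPM) and reached 11.2 and 231 CPM in other epithelial-like cells, and Saa3 was highest in old macrophage or monocyte-like cells (111 CPM). Many signals besides IL-17 induce these genes, and whether they were related to the Il17a carriers was not tested.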

How the data were processed

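The deposited values are raw UMI counts per gene and barcode, which the authors made with Cell Ranger (version 3.1.0 in the file header) on the mouse genome mm10. They were made from 10x droplet libraries of 1 pool of old and 1 pool of young kidneys, and replicates are therefore absent. All columns mapped to 1 of these libraries. Following the study's methods, barcodes were dropped under 200 genes or over 20% mitochondrial UMIs, which left 145647185 UMIs in the young and 119218130 in the old library. Doublets were called with Scrublet in Scanpy 1.11.5 (328 young and 246 old cells) and kept in the values given.

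Clusters came from Seurat 5.3.0 in R 4.3.3, with normalisation to 10000 UMIs per cell, 2000 variable genes without the 7 members, integration over 20 dimensions, 10 principal components and resolution 0.8, which gave 27 clusters. A cluster of at least 20 cells was named where 3 markers of a class were detected in 10% of its cells and at 25% of the highest cluster's CPM, unless its 10 leading genes went against the name. CPM were formed from UMIs summed over the cells of a group and a library. A value of 0 was given the limit of 3 counts. Co-detection was also read after thinning each cell to 1000 UMIs (seed 7), leaving out shallower cells. Gene ratios used genes with at least 100 UMIs summed over both groups, and at least 2-fold was called. Intervals are exact 95% intervals from SciPy 1.17.1 (Poisson, Clopper-Pearson and binomial), and they and the 0 limits cover counting error only, as UMIs of 1 cell are not independent. Scripts ran in Python 3.11.15 with NumPy 2.4.6, pandas 2.3.3 and Matplotlib 3.10.9, and the ratio calculation was tested on simulated counts.

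Named genes were the 7 members, the genes of the lists that were at least 2-fold higher in young Il17a carriers, the 10 genes of highest Jaccard index (genes with a UMI in at least 20 cells) and the 10 highest ratios among genes held by at least 25% of young carriers. Others with values (top cells, variable genes, lineage genes of carriers, pathway genes across libraries) were picked with the data in view. The members and lists were chosen with earlier results of these data known, and nothing here is independent support for them. A gene of the lists is not reported here by name, although list counts include it. Promoter windows and their sequences are from RefSeq on GRCm38.p6. Alternatives were other cell limits, doublets left out, other totals, CD3 cells only, other depths, carrier minimums, resolutions and count minimums, and clustering without integration.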

Additional observations from a re-analysis of the deposited data

Results flagged for a closer look

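UMIs of the members were also counted in the barcodes left out by the cell limits, 3647 young barcodes with 11140627 UMIs and 2390 old barcodes with 7116126 UMIs. Tmem176a had 6497 UMIs there in the young library (583 CPM, 1489 barcodes) and 3560 in the old (500.3 CPM, 721 barcodes), and Tmem176b had 6476 (581 CPM, 1522 barcodes) and 3390 (476 CPM, 715 barcodes). These 4 values stand out because they lie in data that the comparisons do not use and exceed the limit of 3 counts. In kept cells the levels were 894 and 622 CPM for Tmem176a and 997 and 753 CPM for Tmem176b. Il17a and Il22 had 0 UMIs in the left-out barcodes of both libraries, Il17f 0 and 1, Il23r 1 and 0, and Il1r1 3 and 1. With 1 library per age samples far from their group were not looked for and no difference between groups was tested.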

How the results depend on the processing

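No paired analysis was possible because each age is 1 library and no replicate numbers are shared. Of the alternatives for values that answer a comparison, 169 left the value within its interval (for a count, within 1.5 times), 48 moved it and 2 turned its sign, and of those for single genes 161, 34 and 4 did. Counting only cells with a CD3 UMI, the library log2 ratio of old over young was -3.33 for Il22 (reversed), -2.33 for Il17a, -3.36 for Il23r, -4.43 for Il1r1, -0.954 for Tmem176a and -0.804 for Tmem176b, and within T-like and ILC2-like cells, added after seeing the data, it was -1.74 for Il22 (reversed), -1.71, -2.67, -3.19, -1.99 and -1.80. At most 10% mitochondrial UMIs gave -0.572 and -0.446 for Tmem176a and Tmem176b, and leaving abundant genes out of the total -0.502 and -0.384. With at least 2 Il17a UMIs, 100% of old carriers held Trac or Trbc without Trdc, and young co-detection was 0% for Il22 and Il23r. Thinned to 500 UMIs, young co-detection was 0% for Il17f and Il23r and 22.6% for Tmem176a, and old co-detection 0% for Il22 and Tmem176a. Thinned to 2000 UMIs, young Il1r1 was at 26.7%, and without thinning Il23r was at 19.4%, Il1r1 32.3%, Tmem176a 83.9% and Tmem176b 80.6%. Il17a in young T-like cells was at 51.0 CPM at resolution 1.2, and in old T-like cells at 0 CPM when merged without integration and 8.65 CPM when the CPM of single cells were averaged. When merged, 5 old carriers with 97 Il17a UMIs lay in the ILC3-like cluster and none in a T-like cluster, so the 0 goes with the naming of clusters. In young ILC2-like cells Il17a was at 4.33 CPM at resolution 1.2, at 4.33 CPM with members kept for clustering and at 3.49 CPM when averaged so. Genes at least 2-fold higher in young carriers numbered 795 with at least 20 UMIs, 1376 with no minimum, 142 in CD3 cells and 28 in cluster 6 alone, against 321, and lower ones 353 in CD3 cells and 154 in cluster 6, against 810. In old carriers 1611 and 1836 were higher with these 2 minimums, against 983, and 588 lower without doublets and 437 in cluster 6, against 934. Type 3 programme genes higher in young carriers were 2 in cluster 6 and 4 in cluster 1, and in old carriers 11 with at least 20 UMIs, 12 with no minimum and 3 in cluster 6, against 7 in each library. Among single young ratios, Cd163l1 was -0.561 with at least 2 Il17a UMIs, Il18r1 -0.337 in cluster 6, and Trbc1 -0.32 in CD3 cells and -0.978 in cluster 6. The causes were not tested, other than that some alternatives hold fewer cells or genes by construction. Depth limits the 5 sparse members to cells that held at least 1 UMI.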
